A study of Homo sapiens with 24 samples.

Results

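The genes described here are 10 secreted factors of the chemokine, interferon lambda and colony stimulating factor families: CXCL8, CXCL1, CXCL2, CXCL3, CXCL10, CCL5, CCL20, CSF2, IFNL1 and IFNL2. They were taken by symbol from a table of 19702 genes, and all 10 were found in it. RNA sequencing covered PC9 and H1975, which are established human lung adenocarcinoma lines with activating mutations of EGFR, the epidermal growth factor receptor gene. In each line 3 libraries were made for each of 4 groups after 24 h: almonertinib (2 nM in PC9, 1 nM in H1975), paclitaxel (0.3 nM in PC9, 1 nM in H1975), their combination, and control. Almonertinib is a covalent inhibitor of mutant EGFR, and paclitaxel is a taxane that stabilises microtubules. The labels do not state the doses within the combination separately, and single-drug doses differed between the lines, so line and dose cannot be told apart.

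Chemokines are small secreted proteins that attract leukocytes through G protein-coupled receptors. CXCL8, CXCL1, CXCL2 and CXCL3 attract neutrophils through CXCR2, CXCL10 attracts activated T and NK cells through CXCR3, CCL5 acts on T cells and monocytes, and CCL20 acts through CCR6. CSF2 encodes GM-CSF, a growth factor of granulocytes and macrophages, and the lambda interferons act on epithelia through a receptor made of IFNLR1 and IL10RB. Many of these genes are switched on by NF-kB, AP-1 or interferon regulatory factors after injury or infection, and EGFR signalling is known to induce CXCL8 in airway epithelium.

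Library totals ran from 14232299 to 24245314 counts, and 13780 to 14502 genes had a count in a library. Both lines carried all 5 epithelial markers. PTPRC, which marks leukocytes, had at most 1 count in any group. The 8 leukocyte markers together were not absent, with sums of 15.4 to 32.8 CPM in PC9 libraries and 38.7 to 53.8 CPM in H1975 libraries. Nothing in the labels states whether a group's 3 libraries are separate cultures, so each p-value speaks only for the spread among its libraries, possibly a technical one. In bulk RNA, fewer cells with a message and less message per cell cannot be told apart. In 4 libraries the rank correlation of gene deviations with GC content differed by more than 0.5 from both other libraries of the group. It was 0.50 in PC9 almonertinib replicate 3, against -0.29 and -0.28 in the others, 0.80 in H1975 almonertinib replicate 1, against -0.63 and -0.47, -0.49 in H1975 paclitaxel replicate 1, against 0.06 and 0.17, and -0.64 in H1975 control replicate 3, against 0.31 and 0.42. Counts of calls without these 4 libraries stand beside the main ones. The PC9 groups also differed: the correlations were -0.59, -0.60 and -0.42 with paclitaxel and 0.17, 0.19 and 0.38 in controls. With the combination they were 0.30, -0.02 and 0.33. Leaving out the 4 libraries does not remove this. Transcript GC content was 0.53 in CCL5, 0.56 in IFNL1, 0.60 in IFNL2 and 0.33 in CXCL8. The part of GC content in the PC9 responses was not tested beyond fits with the length and GC trend removed. A gene was called where the adjusted p of edgeR's quasi-likelihood test was under 0.05, Benjamini-Hochberg adjusted over all genes of a comparison.

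The promoters of 9 of the 10 genes were matched in a RefSeq table (GRCh38.p14), and 7 are printed because their genes differ in response although several hold the same motif. Each shows the 250 bases before the annotated start, 5′ to 3′ on the gene's strand, and capitals mark matches to NF-kB (GGANNTTCC or GGGNNTTCC), AP-1 (TGANTCA) or ISRE, the interferon-stimulated response element (GAAA, any 2 bases, GAAA), on either strand. The windows are chr4:73740319-73740568 (+) for CXCL8, chr4:73869143-73869392 (+) for CXCL1, chr4:74099196-74099445 (-) for CXCL2, chr4:76023498-76023747 (-) for CXCL10, chr5:132073539-132073788 (+) for CSF2, chr19:39296157-39296406 (+) for IFNL1 and chr19:39268146-39268395 (+) for IFNL2.
CXCL8: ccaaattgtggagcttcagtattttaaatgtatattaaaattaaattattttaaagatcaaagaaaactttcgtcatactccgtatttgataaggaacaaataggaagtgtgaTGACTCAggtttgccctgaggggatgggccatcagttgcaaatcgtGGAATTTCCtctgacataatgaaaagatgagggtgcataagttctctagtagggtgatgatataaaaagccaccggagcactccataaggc
CXCL1: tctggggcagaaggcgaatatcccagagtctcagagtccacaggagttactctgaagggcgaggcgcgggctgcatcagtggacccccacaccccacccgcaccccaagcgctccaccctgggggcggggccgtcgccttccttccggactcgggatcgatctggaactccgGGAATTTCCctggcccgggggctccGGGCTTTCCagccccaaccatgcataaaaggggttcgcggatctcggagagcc
CXCL2: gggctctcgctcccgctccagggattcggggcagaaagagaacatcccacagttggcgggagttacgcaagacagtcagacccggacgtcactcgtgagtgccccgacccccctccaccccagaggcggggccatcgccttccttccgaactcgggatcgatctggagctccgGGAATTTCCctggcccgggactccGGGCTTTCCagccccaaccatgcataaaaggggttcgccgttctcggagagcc
CXCL10: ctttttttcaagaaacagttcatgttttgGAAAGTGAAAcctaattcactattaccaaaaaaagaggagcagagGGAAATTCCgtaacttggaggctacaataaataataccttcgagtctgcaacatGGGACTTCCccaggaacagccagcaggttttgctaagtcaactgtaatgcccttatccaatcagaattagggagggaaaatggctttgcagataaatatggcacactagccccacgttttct
CSF2: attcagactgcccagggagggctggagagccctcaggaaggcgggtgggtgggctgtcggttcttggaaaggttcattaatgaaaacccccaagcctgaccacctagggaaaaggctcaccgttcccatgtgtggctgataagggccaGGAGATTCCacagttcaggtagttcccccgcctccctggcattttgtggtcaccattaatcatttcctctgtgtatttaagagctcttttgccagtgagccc
IFNL1: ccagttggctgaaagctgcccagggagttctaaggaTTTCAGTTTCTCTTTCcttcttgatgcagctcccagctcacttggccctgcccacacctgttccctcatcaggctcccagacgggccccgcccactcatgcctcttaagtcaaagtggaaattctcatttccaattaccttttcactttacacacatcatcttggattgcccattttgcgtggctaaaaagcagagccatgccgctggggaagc
IFNL2: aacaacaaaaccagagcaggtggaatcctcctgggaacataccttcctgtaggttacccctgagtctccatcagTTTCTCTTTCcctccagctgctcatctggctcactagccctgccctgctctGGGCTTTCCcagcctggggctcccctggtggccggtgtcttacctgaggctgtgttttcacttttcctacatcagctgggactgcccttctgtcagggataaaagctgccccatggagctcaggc

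Capitals do not mark the TATA box. An NF-kB match was present in 8 of the 9 matched promoters, against 10.8% of 35116 promoters of the same length. CXCL1, CXCL2 and CXCL3 each held 2, with the same letters at nearly the same distance (-78 and -53 from the start in CXCL1 and CXCL3, -77 and -53 in CXCL2). CXCL8 held a single NF-kB match at -91 and the only AP-1 match of the set at -137, a motif found in 7.71% of promoters. ISRE matches, found in 3.57% of promoters, stood in CXCL10 (-221), IFNL2 (-176) and IFNL1, where a pair at -214 and -208 overlap each other. A TATA box (TATAAA), present in 11.5% of promoters, was matched in CXCL8 (-31) and CCL20 (-29). These are matches of letters in a window, not shown sites.

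The messages also carried many ATTTA pentamers, the core of the AU-rich elements that mark short-lived cytokine messages for decay. The transcript of CSF2 held 8, or 10.2 per kb, CXCL2 held 10, or 8.21 per kb, and CXCL8 held 10, or 5.87 per kb. The median of 19561 coding genes was 0.941 per kb, and CSF2 lay above 99.99% of them. CCL5 held 0 and CXCL10 held 2, so the chemokines described here differed widely in this feature. Sequence shared with near-identical copies touches a few of them: IFNL2 shared 32.0% of its 50-base windows and 5.17% of its 100-base windows with IFNL3, while CXCL1, CXCL2 and CXCL3 shared 0.573 to 5.73% of 50-base windows with each other and 0 of 100-base windows. IFNL2 counts may therefore include reads of IFNL3.

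The untreated lines expressed different members of the set. Levels are CPM, counts scaled by the library size and its TMM factor, and between genes they are compared per kb of transcript. In PC9 control libraries IFNL1 (269 CPM per kb) and CCL5 (259 CPM per kb) led by far, followed by IFNL2 (14.2), CXCL8 (9.33), CXCL1 (7.78), CXCL10 (3.21), CSF2 (2.83), CXCL2 (1.94), CXCL3 (0.830) and CCL20 (0.466). The library ranges of neighbours in this order overlapped except between CCL5 and IFNL2, CXCL1 and CXCL10, and CXCL2 and CXCL3. In H1975 control libraries CSF2 led with 22.5 CPM per kb, followed by CXCL2 (4.83), CXCL8 (3.76), CCL5 (2.24), CXCL1 (1.20), CXCL3 (0.945), CCL20 (0.384), IFNL1 (0.262) and CXCL10 (0.0160), and IFNL2 had 0 counts. Here the ranges overlapped between CXCL2 and CXCL8, CXCL1 and CXCL3, CCL20 and IFNL1, and CXCL10 and IFNL2.

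Between control cells, 8 of the 10 genes were called in the fit of all 24 libraries, 6 higher and 2 lower in PC9. Of the 13380 genes tested there, 68.7% were called. Without the libraries that stood apart on GC, 8 of the 10 and 10173 of all genes were called. CCL5 was 115-fold higher in PC9 (log2 difference 6.85 ± 0.28 SE, edgeR adjusted p = 9.16e-17). IFNL1 had 10554 counts over the 3 PC9 control libraries and 14 over the 3 H1975 control libraries, a ratio of 956 with a counting interval of 569 to 1748 (exact, 95%). CXCL10 had 172 and 1 counts, a ratio of 218 (38.6 to 8661). IFNL2 had 484 and 0, which is 204-fold higher in PC9 when 3 counts are allowed over the H1975 group. The lower limit of its exact 95% interval was 166. CXCL1 was higher in PC9 by 2.70 ± 0.24 and CXCL8 by 1.31 ± 0.26 on the log2 scale. CSF2 was 7.87-fold lower in PC9 (-2.98 ± 0.28, adjusted p = 7.26e-10) and CXCL2 was 2.43-fold lower (-1.28 ± 0.26). CXCL3 (-0.19 ± 0.43) and CCL20 (0.21 ± 0.55) were not called. Counting intervals cover counting error only.

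In PC9, 5 of the 10 genes fell and 1 rose with almonertinib, a share close to that of all genes, since 56.7% of 12796 genes tested were called. With paclitaxel 3 fell and 1 rose, where 55.0% of genes were called, and with the combination 5 fell and 3 rose, where 50.7% were called. The median log2 change over the 10 genes was -1.0 under almonertinib, -0.01 under paclitaxel and -0.51 under the combination, beside 0.03, -0.01 and 0.00 over all genes tested. Set against almonertinib alone, the combination had 4 of the genes higher and 2 lower, with 20.1% of all genes called. Set against paclitaxel alone it had 4 higher and 4 lower, with 44.1% called. The drug interaction, meaning how far the log2 effect of the combination departs from the summed effects of the single drugs, was called for 6, with 45.5% of all genes called. Without PC9 almonertinib replicate 3, which stood apart on GC, 5, 5, 8, 6, 8 and 7 of the 10 genes were called in the order given. Over all genes the same fits called 8093, 8068, 7597, 4184, 7110 and 7474.

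Markers of other cell types moved with these groups. The 8 leukocyte markers summed to 15.4 to 25.6 CPM with almonertinib, 16.8 to 21.7 CPM with paclitaxel, 27.5 to 32.8 CPM with the combination and 16.6 to 20.3 CPM in controls of PC9, mostly from CSF1R, while CD3E, LYZ and PTPRC had at most 2 counts in any of these groups. The 6 fibroblast markers summed to 21.3 to 22.7 CPM with the combination and 12.5 to 17.4 CPM in controls, with COL1A2, LUM and PDGFRA at 0, and the 4 endothelial markers to 8.82 to 11.2 CPM and 4.70 to 6.72 CPM, with KDR at 0. The 5 epithelial markers summed to 11261 to 12692 CPM with paclitaxel and 16222 to 19303 CPM in controls. The part of the epithelial shift in the results was not tested.

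**Figure D1:**
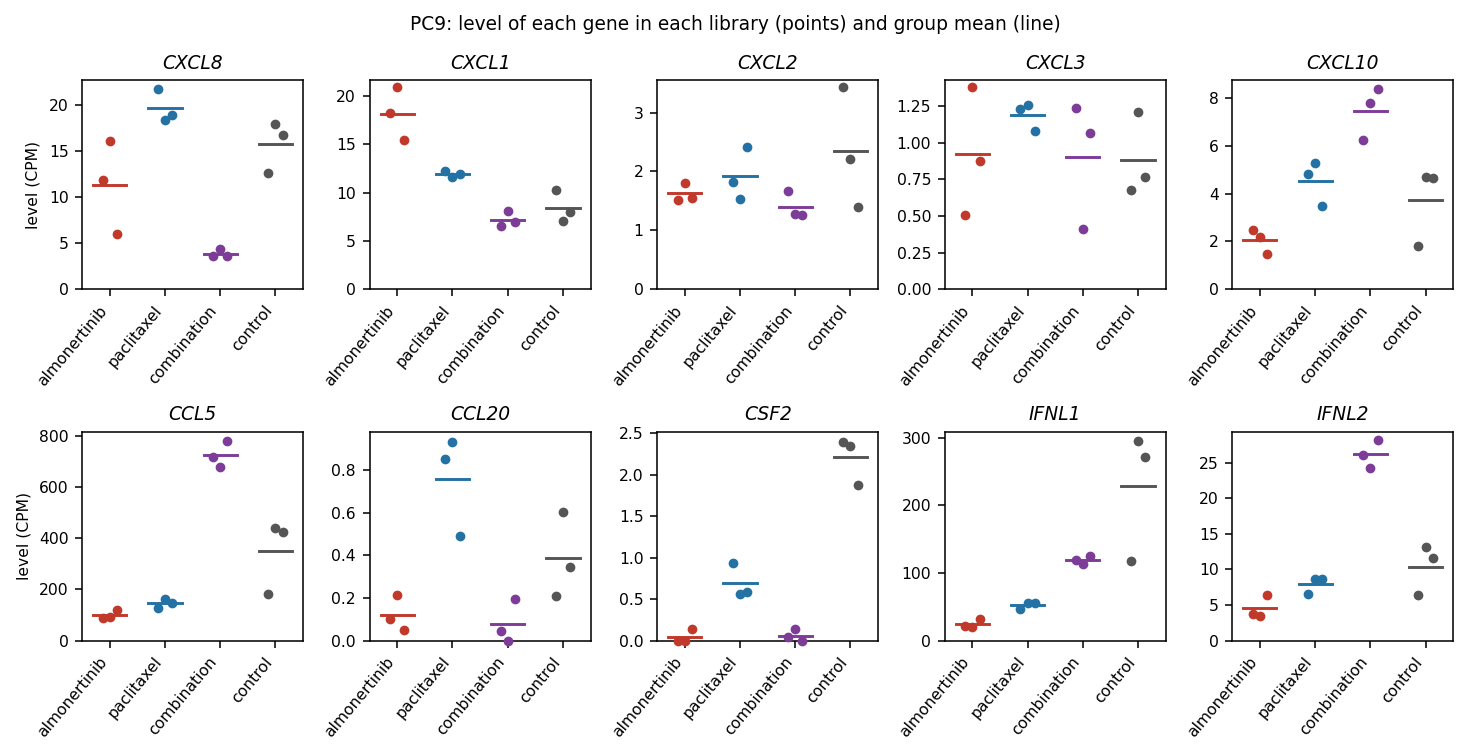
Level of each gene in CPM (vertical axis, linear, from 0) in PC9, with 3 libraries as points and the group mean as a line for almonertinib, paclitaxel, combination and control. CCL5 reached 679 to 781 CPM in the combination, above every other library, while CSF2 was near 0 in the almonertinib and combination groups.

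Among the neutrophil attractants, CXCL8 and CXCL2 fell with the combination, CXCL1 rose with each single drug, and CXCL3 was not called. CXCL8 (chr4:73740506-73743716, GENCODE v29 on GRCh38) stood at 11.8, 16.1 and 6.03 CPM in the PC9 almonertinib libraries, 21.7, 18.3 and 18.9 CPM with paclitaxel, 3.61, 4.35 and 3.64 CPM with the combination, and 12.6, 17.9 and 16.7 CPM in controls. The combination libraries lay below all others, and the paclitaxel libraries above all controls. CXCL8 fell 4.05-fold with the combination (-2.02 ± 0.26 SE on the log2 scale, edgeR adjusted p = 1.06e-05) and was not called with almonertinib (-0.47 ± 0.24, adjusted p = 0.105) or paclitaxel (0.33 ± 0.23, adjusted p = 0.249). The 2 single-drug estimates thus sum to -0.14, and the interaction of -1.87 ± 0.35 was called. It shrank to -0.69 ± 0.30 (adjusted p = 0.0676) once each library's trend with length and GC content of the transcripts was removed, a change that also made the almonertinib response of CXCL8 a call at -1.12. Same-numbered PC9 almonertinib and control libraries deviated together, and with the replicate number as a block the almonertinib response of CXCL8 was called at -0.51 (adjusted p = 0.0357). It was also called without almonertinib replicate 2 (-0.82). The paclitaxel response was called at 0.34 without almonertinib replicate 3 and at 0.37 in a fit of paclitaxel and control alone.

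CXCL1 (chr4:73869393-73871242) stood at 18.2, 20.9 and 15.4 CPM with almonertinib, 12.3, 11.6 and 12 CPM with paclitaxel, 6.52, 8.06 and 6.98 CPM with the combination, and 10.3, 7.05 and 7.99 CPM in controls. Both single-drug groups lay above all controls, and the combination overlapped them. CXCL1 rose 2.14-fold with almonertinib (1.10 ± 0.16, adjusted p = 1.91e-05) and 1.40-fold with paclitaxel (0.49 ± 0.16, adjusted p = 0.015), and was not called with the combination (-0.24 ± 0.16, adjusted p = 0.227). The paclitaxel call was lost without control replicate 2 (0.37, adjusted p = 0.0776) or 3 (0.45, adjusted p = 0.053). It was 2.53-fold lower in the combination than with almonertinib alone, and its interaction was -1.83 ± 0.22 (adjusted p = 1.05e-05), so the combination lay well under the sum of the single-drug effects.

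CXCL2 (chr4:74097035-74099293), whose promoter shares both NF-kB matches with CXCL1, stood at 1.52, 1.81 and 1.56 CPM with almonertinib, 1.83, 1.54 and 2.41 CPM with paclitaxel, 1.66, 1.28 and 1.26 CPM with the combination, and 3.44, 2.22 and 1.39 CPM in controls. The controls spanned nearly the whole range, so every treated group overlapped them. CXCL2 fell 1.71-fold with the combination (-0.77 ± 0.29, adjusted p = 0.0372). That call was lost without combination replicate 2 (-0.69) or 3 (-0.70), without control replicate 1 (-0.37) or 2 (-0.82), with only these groups in the fit (-0.76), and with the length and GC trend removed (-0.55). With almonertinib its value was -0.55 ± 0.29 (adjusted p = 0.112), called at -0.81 without control replicate 3. CXCL3 (chr4:74036589-74038807), the least abundant of the 4, ranged from 0.412 to 1.38 CPM over the 12 PC9 libraries and was not called in any PC9 comparison, with log2 differences from control of 0.10 ± 0.41 with almonertinib, 0.45 ± 0.40 with paclitaxel and 0.05 ± 0.42 with the combination.

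CXCL10, CCL5 and both lambda interferons shared a pattern in PC9: their combination levels stood above what the single drugs gave. CCL5 (chr17:35871491-35880793) stood at 87.5, 92.2 and 118 CPM with almonertinib, 129, 165 and 146 CPM with paclitaxel, 717, 679 and 781 CPM with the combination, and 182, 442 and 424 CPM in controls. The groups did not overlap, with the combination above and both single drugs below every control. CCL5 fell 3.52-fold with almonertinib (-1.81 ± 0.23, adjusted p = 6.37e-06) and 2.38-fold with paclitaxel (-1.25 ± 0.23, adjusted p = 0.000304), yet rose 2.08-fold with the combination (1.06 ± 0.23, adjusted p = 0.00101). It was 7.31-fold higher in the combination than with almonertinib alone and 4.95-fold higher than with paclitaxel alone. Its interaction of 4.12 ± 0.33 (adjusted p = 9.56e-08) had the sign opposite to both single-drug effects.

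Control replicate 1 was the low library for CCL5, IFNL1, IFNL2 and CXCL10 alike. Without it the combination response of CCL5 was 0.74, that of CXCL10 0.67, that of IFNL2 1.08 and that of IFNL1 -1.25, and all 4 stayed called in the same direction. CXCL10 (chr4:76021117-76023497) stood at 2.49, 2.2 and 1.46 CPM with almonertinib, 4.80, 5.27 and 3.50 CPM with paclitaxel, 6.23, 7.78 and 8.39 CPM with the combination, and 1.82, 4.70 and 4.66 CPM in controls. The combination libraries lay above all others, and the almonertinib libraries overlapped the low control. CXCL10 rose 2.04-fold with the combination (1.03 ± 0.28, adjusted p = 0.00573) and fell 1.78-fold with almonertinib (-0.83 ± 0.31, adjusted p = 0.0311), with no call for paclitaxel (0.31 ± 0.29). The almonertinib call was lost without almonertinib replicate 2 (-0.89) or 3 (-0.61), without control replicate 2 (-0.62) or 3 (-0.63), and with only these groups in the fit (-0.84). Against paclitaxel alone the combination was higher by 0.72 ± 0.26 (adjusted p = 0.0361), a call lost without paclitaxel replicate 1 (0.74), 2 (0.83) or 3 (0.55), without combination replicate 2 (0.68) or 3 (0.63), and in the fit of all libraries (0.70). Its interaction was 1.55 ± 0.41 (adjusted p = 0.00562).

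IFNL1 (chr19:39296325-39298673) stood at 22.5, 20.9 and 32.6 CPM with almonertinib, 47.4, 55.6 and 55.2 CPM with paclitaxel, 119, 113 and 125 CPM with the combination, and 117, 295 and 271 CPM in controls. Both single drugs lay below every control, and the combination overlapped the low control. IFNL1 fell 9.0-fold with almonertinib (-3.17 ± 0.26, adjusted p = 3.89e-08), 4.32-fold with paclitaxel (-2.11 ± 0.24, adjusted p = 5.61e-06) and 1.91-fold with the combination (-0.93 ± 0.23, adjusted p = 0.00328). IFNL1 and CSF2 were the genes of the set called lower under all 3 treatments. IFNL1 was nevertheless 4.71-fold higher in the combination than with almonertinib alone and 2.26-fold higher than with paclitaxel alone. The interaction, 4.35 ± 0.35 (adjusted p = 9.56e-08), was the largest estimate of the 10.

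IFNL2 (chr19:39268514-39270092) stood at 3.76, 3.53 and 6.42 CPM with almonertinib, 6.62, 8.60 and 8.71 CPM with paclitaxel, 26.1, 24.3 and 28.1 CPM with the combination, and 6.36, 13.1 and 11.6 CPM in controls. The combination libraries lay above all others, and only the low control reached into the single-drug groups. IFNL2 fell 2.25-fold with almonertinib (-1.17 ± 0.25, adjusted p = 0.000811) and rose 2.55-fold with the combination (1.35 ± 0.23, adjusted p = 0.000137). Under paclitaxel it was not called (-0.36 ± 0.24), though without control replicate 1 it was called at -0.63 (adjusted p = 0.0202). The interaction was 2.88 ± 0.34 (adjusted p = 7.59e-06). IFNL1 shared 0 of its 50-base windows with IFNL2 or IFNL3.

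CCL20 (chr2:227805739-227817564) was scarce in PC9, with 2, 5 and 1 counts in the almonertinib libraries, 20, 23 and 10 with paclitaxel, 1, 0 and 4 with the combination, and 4, 9 and 5 in controls. In CPM the paclitaxel libraries overlapped the controls, since paclitaxel replicate 3 (0.492 CPM) lay below control replicate 2 (0.604 CPM), and the combination libraries lay below all controls. It fell with the combination (-2.16 ± 0.78, adjusted p = 0.0282), where the summed counts of 5 against 18 gave a level 4.72-fold lower with a counting interval of 1.69 to 16.2. That call was lost without combination replicate 1 (-1.92) or 2 (-1.58) or control replicate 2 (-1.70). Without combination replicate 3, which held 4 of the 5 counts, it was -3.69 and still called. The single-drug values were -1.53 ± 0.71 for almonertinib (adjusted p = 0.0747) and 1.02 ± 0.50 for paclitaxel (adjusted p = 0.093). The almonertinib value was called without almonertinib replicate 2 (-2.24), without control replicate 1 (-1.88) and with the length and GC trend removed (-2.12), and the paclitaxel value with only these groups in the fit (1.07).

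CSF2 (chr5:132073790-132076170) nearly vanished from PC9 wherever almonertinib was present. It had 0, 0 and 3 counts in the almonertinib libraries, 22, 14 and 12 with paclitaxel, 1, 3 and 0 with the combination, and 46, 35 and 27 in controls. The 4 groups formed 3 levels, with almonertinib and combination at the bottom, paclitaxel between and controls on top, and treated groups did not overlap the controls. Its level was 47.1-fold lower with almonertinib (counting interval 15.7 to 232, edgeR adjusted p = 1.32e-06), 35.4-fold lower with the combination (13.4 to 132, adjusted p = 2.41e-06) and 3.15-fold lower with paclitaxel (-1.66 ± 0.36, adjusted p = 0.00132). The combination was 11.1-fold lower than paclitaxel alone (4.07 to 42.5, adjusted p = 0.000724), while 4 counts against 3 gave a ratio to almonertinib alone of 1.33 (0.225 to 9.10). The interaction of 2.02 ± 1.30 was not called. Without almonertinib replicate 3, which held the 3 counts of its group, the fit gave an interaction of 5.13 ± 1.81 (adjusted p = 0.0222) and an almonertinib response of -8.48, both against a group with 0 counts, so neither is a bound.

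**Figure D2:**
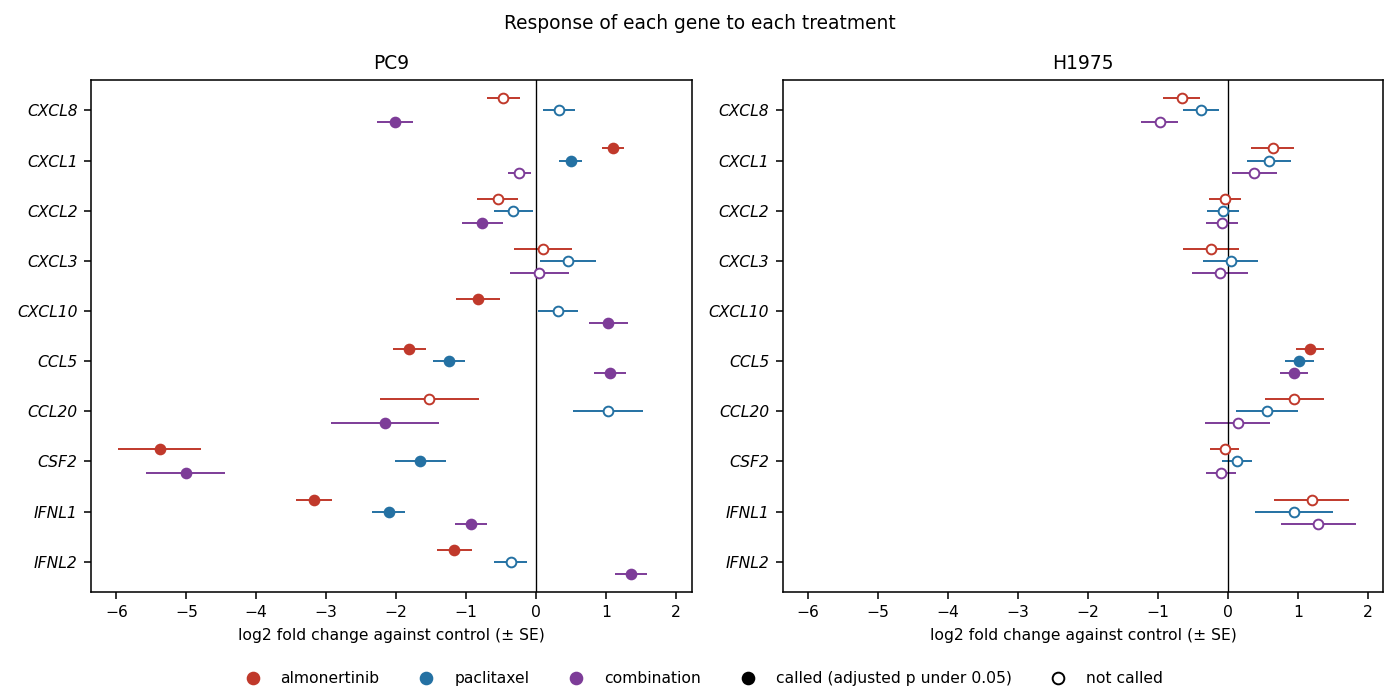
Log2 fold change against control (horizontal axis, bars ± SE) of each gene under almonertinib, paclitaxel and the combination in PC9 and H1975, filled where the edgeR adjusted p was under 0.05. In PC9 CCL5 lay at -1.81 and -1.25 under the single drugs and at 1.06 under the combination, while in H1975 its 3 estimates lay between 0.95 and 1.18; CXCL10 and IFNL2 were too low to test in H1975.

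The departure from the sum of the single-drug effects split the set. CCL5, IFNL1, IFNL2 and CXCL10 lay above that sum, by 1.55 to 4.35 on the log2 scale, CXCL8 and CXCL1 lay below it by similar amounts (-1.87 and -1.83), and CXCL2 (0.10 ± 0.41), CXCL3 (-0.51 ± 0.56), CCL20 (-1.66 ± 1.07) and CSF2 were not called. The comparisons with control share the control libraries, and the interaction uses all 4 groups.

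**Figure D3:**
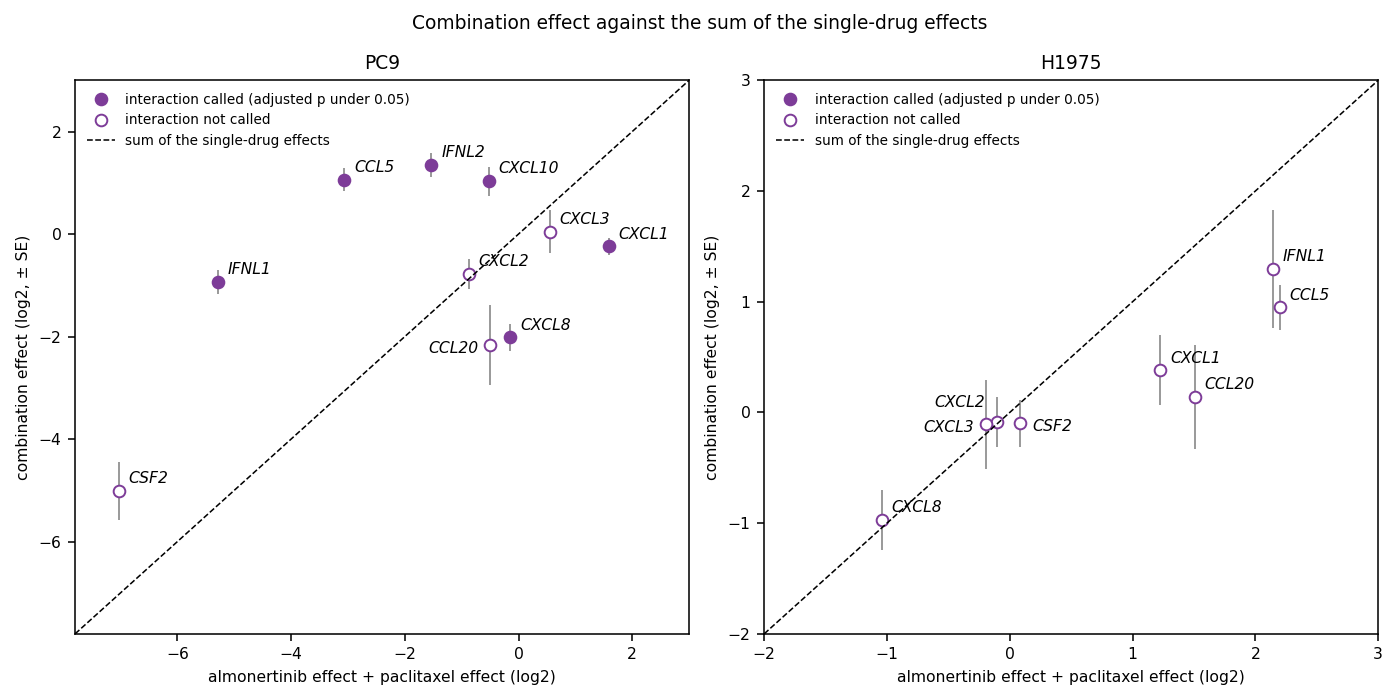
Combination effect against control (vertical axis, log2, bars ± SE) set against the sum of the almonertinib and paclitaxel effects (horizontal axis, log2) for each gene, in PC9 and H1975, with the dashed line where they are equal and filled points where the interaction was called. In PC9 IFNL1, with a sum of -5.28 and a combination effect of -0.93, and CCL5, with -3.06 and 1.06, lie farthest above the line.

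In H1975 CCL5 was the only gene of the set called against control by edgeR. With almonertinib 1 of the 8 genes tested was called, where 1.95% of 12345 genes were called. With paclitaxel 1 was called, where 0.640% of genes were, and with the combination 1 was called, where 2.46% were. In each case the gene was CCL5 and the direction was up. The combination against almonertinib alone called 0 of the 8 genes and 0% of all genes by edgeR, with 0 of the 8 and 1230 of all genes at an unadjusted p under 0.05, and DESeq2 called 41 genes. Against paclitaxel alone edgeR called 0 of the 8 and 0% of all genes, with 1 and 1704 at an unadjusted p under 0.05, and DESeq2 called 478 genes. The interaction called 0 of the 8 by edgeR, where 0.672% of genes were called, with 2 of the 8 at an unadjusted p under 0.05, and DESeq2 called 1, CCL5. Without the 3 H1975 libraries that stood apart on GC, 2, 1, 3, 0, 1 and 1 of the genes were called in the order given. Over all genes the same fits called 5630, 1094, 4328, 4255, 4087 and 4077. Same-numbered combination and control libraries deviated together, and with the number as a block 202 genes were called with the combination in place of 304.

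**Figure D4:**
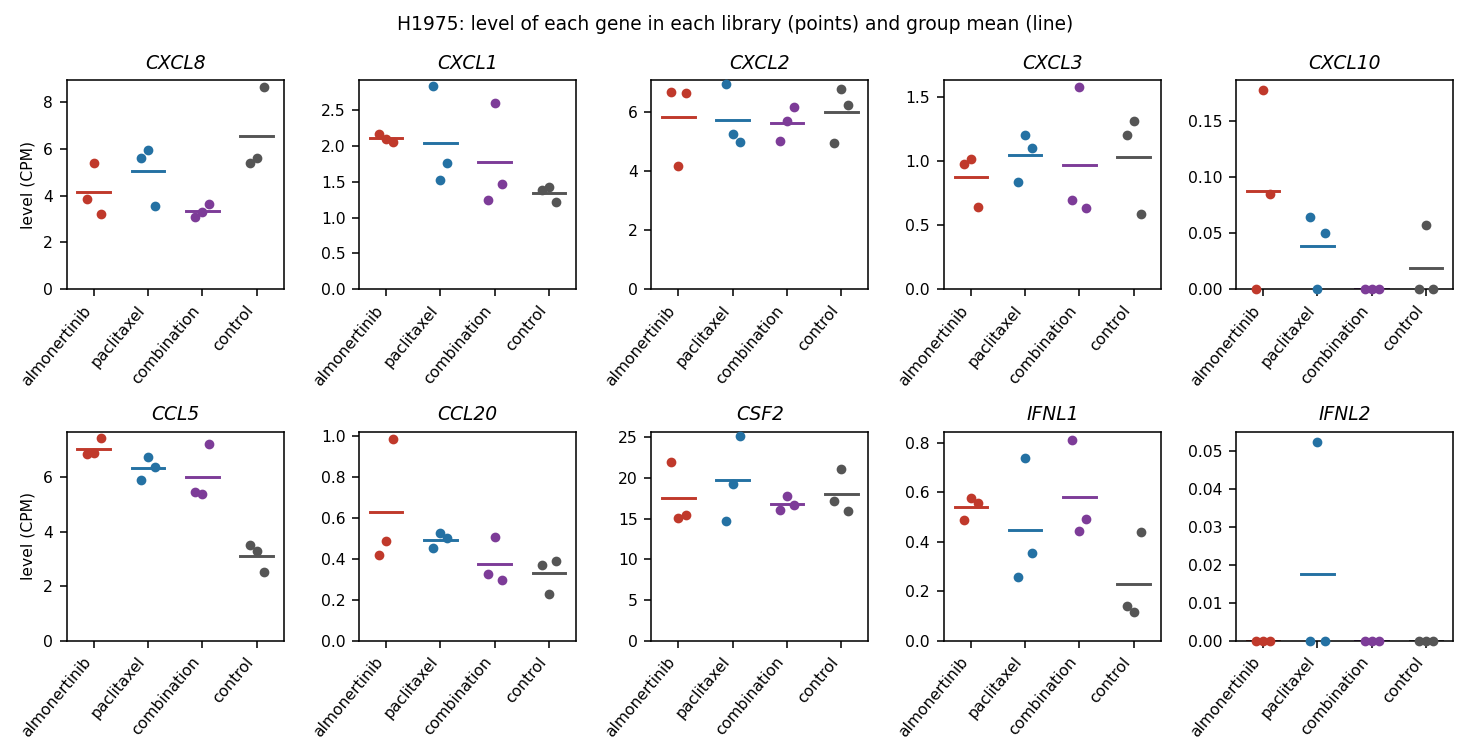
Level of each gene in CPM (vertical axis, linear, from 0) in H1975, with 3 libraries as points and the group mean as a line for almonertinib, paclitaxel, combination and control. All 9 treated libraries of CCL5 lie between 5.39 and 7.43 CPM, above the controls at 2.54 to 3.52 CPM.

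CCL5 stood at 6.84, 6.88 and 7.43 CPM in the H1975 almonertinib libraries, 5.92, 6.73 and 6.39 CPM with paclitaxel, 5.45, 5.39 and 7.21 CPM with the combination, and 3.52, 3.31 and 2.54 CPM in controls. Every treated library lay above every control. CCL5 rose 2.26-fold with almonertinib (1.18 ± 0.20, edgeR adjusted p = 0.00489), 2.03-fold with paclitaxel (1.02 ± 0.20, adjusted p = 0.0263) and 1.93-fold with the combination (0.95 ± 0.20, adjusted p = 0.0244). The paclitaxel call was lost when any of the paclitaxel or control libraries was left out (0.89 to 1.12), and also without combination replicate 1 or 2 (1.02 in both). The combination call was lost when any of the combination or control libraries was left out (0.78 to 1.04), and the almonertinib call with only these groups in the fit (1.14, adjusted p = 0.127). The interaction of -1.25 ± 0.28 missed the threshold (adjusted p = 0.0609) and was called by DESeq2 (-1.21, adjusted p = 0.0108), with the length and GC trend removed (-1.26), without almonertinib replicate 1 (-1.27) and without the libraries that stood apart (-1.18).

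CSF2, the most abundant of the 10 in H1975, showed no called difference there: it stood at 21.9, 15.1 and 15.5 CPM with almonertinib, 14.7, 19.2 and 25.2 CPM with paclitaxel, 16.0, 17.8 and 16.7 CPM with the combination, and 17.1, 21.1 and 15.9 CPM in controls. All groups overlapped, and the 95% interval of the almonertinib effect was -0.46 to 0.37 on the log2 scale (-0.05 ± 0.21), that of the paclitaxel effect -0.28 to 0.54 and that of the combination effect -0.51 to 0.32. Against paclitaxel alone the combination was lower by a called -0.40 without the libraries that stood apart on GC, beside -0.23 ± 0.21 with all.

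CXCL8 stood at 3.84, 5.37 and 3.20 CPM in the H1975 almonertinib libraries, 5.60, 5.94 and 3.57 CPM with paclitaxel, 3.08, 3.30 and 3.63 CPM with the combination, and 5.41, 5.59 and 8.65 CPM in controls. The almonertinib and combination libraries lay below all controls. The combination value of -0.97 ± 0.27 was not called (edgeR adjusted p = 0.0682). It was called by DESeq2 (-0.96, adjusted p = 0.0215), in the fit of all 24 libraries (-0.96), with only these groups in the fit (-0.97), without almonertinib replicate 1 (-0.97) and without the libraries that stood apart on GC (-0.72). The almonertinib value was -0.66 ± 0.26 (adjusted p = 0.331) and the paclitaxel value -0.38 ± 0.26 (adjusted p = 0.861).

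The other CXC genes of H1975 gave no call. CXCL1 ranged from 2.05 to 2.17 CPM with almonertinib, 1.53 to 2.83 CPM with paclitaxel, 1.24 to 2.60 CPM with the combination and 1.22 to 1.43 CPM in controls. Both single-drug groups thus lay above all controls, and the combination overlapped them. The effects on CXCL1 were 0.64 ± 0.31, 0.59 ± 0.31 and 0.38 ± 0.32 for almonertinib, paclitaxel and the combination. CXCL2, at 4.17 to 6.95 CPM in all 12 libraries, had effects between -0.09 and -0.04, and CXCL3, at 0.586 to 1.58 CPM, between -0.24 and 0.04. CXCL10 had 0, 4 and 2 counts in the almonertinib libraries, 1, 0 and 1 with paclitaxel, 0, 0 and 0 with the combination, and 0, 1 and 0 in controls. Its 6 almonertinib counts against 1 control count give a ratio of 5.94 with a counting interval of 0.720 to 273, which includes no difference.

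CCL20 had 6, 11 and 23 counts in the H1975 almonertinib libraries, 7, 10 and 10 with paclitaxel, 6, 8 and 6 with the combination, and 8, 4 and 8 in controls. In CPM the almonertinib and paclitaxel libraries of CCL20 lay above all controls, with almonertinib replicate 3 the high library, and the combination overlapped the controls. The almonertinib effect of 0.95 ± 0.42 was not called (edgeR adjusted p = 0.438). Nor were the effects of paclitaxel (0.56 ± 0.45) and the combination (0.14 ± 0.47), or the interaction (-1.37 ± 0.62). IFNL1 had 7, 13 and 13 counts with almonertinib, 4, 14 and 7 with paclitaxel, 15, 7 and 10 with the combination, and 3, 2 and 9 in controls. In CPM the almonertinib (1.20 ± 0.53) and combination (1.29 ± 0.54) libraries lay above all controls without a call (adjusted p = 0.438 and 0.209). Without the libraries that stood apart on GC, which removed the control with 9 counts, they were called at 2.09 and 2.14. IFNL2 had 1 count in all 12 H1975 libraries, in paclitaxel replicate 2.

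Whether the lines responded differently was tested in the fit of all 24 libraries, as the PC9 response minus the H1975 response. For almonertinib 4 of the 10 genes were called, all lower in PC9, where 16.6% of 13380 genes were called. CXCL10 and IFNL2 were not called in any of these fits and are given no difference, because an H1975 group held fewer than 3 counts. CCL5 differed by -3.01 ± 0.34 (edgeR adjusted p = 6.93e-07), IFNL1 by -4.39 ± 0.69 (adjusted p = 7.72e-05), CSF2 by -5.35 ± 0.64 (adjusted p = 1.71e-06) and CCL20 by -2.50 ± 0.81 (adjusted p = 0.0358). CSF2 rests on 3 counts in PC9 almonertinib replicate 3 (-8.43 without it, against 0 counts), and the CCL20 call was lost without PC9 almonertinib replicate 1 (-2.39) or 3 (-2.14), PC9 control replicate 2 (-2.03) or 3 (-2.52), H1975 almonertinib replicate 3 (-1.97), H1975 control replicate 1 (-2.59) or 2 (-2.29), or the libraries that stood apart (-2.38). For paclitaxel 3 were called, where 17.1% of genes were: CCL5 (-2.27 ± 0.34), CSF2 (-1.78 ± 0.42) and IFNL1 (-3.05 ± 0.73, lost at -2.50 without H1975 paclitaxel replicate 2).

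For the combination 2 were called, where 18.0% of genes were: CSF2 (-4.92 ± 0.61, adjusted p = 5.83e-06) and IFNL1 (-2.24 ± 0.68, adjusted p = 0.0249). The IFNL1 call was lost without H1975 combination replicate 1 (-1.93) or H1975 control replicate 1 (-1.96) or 2 (-1.97). CCL5, whose combination response was 1.06 in PC9 and 0.95 in H1975, differed by 0.09 ± 0.34 and was not called. CXCL8 differed by -1.06 ± 0.39 (adjusted p = 0.0595). It was called with RLE factors (-1.07), by DESeq2 (-1.07), with the length and GC trend removed (-1.66), without PC9 almonertinib replicate 2 (-1.03) or 3 (-1.06), without H1975 almonertinib replicate 1 (-1.05) or H1975 control replicate 3 (-1.30), and without the libraries that stood apart (-1.27). CCL20 (-2.31 ± 0.90, adjusted p = 0.0755) was called without PC9 combination replicate 3 (-3.82) and with the length and GC trend removed (-2.79). Without the libraries that stood apart, 3, 3 and 3 of the 10 were called for almonertinib, paclitaxel and the combination. Over all genes the same fit called 4031, 4798 and 5187.

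Other secreted factors of the same families were read from lists written with earlier results of these data known. Of 17 other CC and CX3C chemokines 6 could be tested in PC9. With almonertinib 4 fell and 1 rose, with paclitaxel 5 fell, and with the combination 3 fell and 1 rose. Of all genes 56.7%, 55.0% and 50.7% were called either way. The interaction of these 6 was called higher for 4 and lower for 0, with a median of 2.16. Over all genes 45.5% of interactions were called either way, with a median of 0.01. CCL22, which attracts regulatory T cells through CCR4, fell by -4.23 ± 0.21, -1.90 ± 0.18 and -2.62 ± 0.19 under almonertinib, paclitaxel and the combination. CCL3, a relative of CCL5, had 8, 3 and 1 counts over the libraries of these groups and 122 over the controls. Of 11 other CXC chemokines 3 could be tested in PC9. CXCL11, which shares the receptor of CXCL10, fell with almonertinib (-1.81 ± 0.41), and CXCL17 rose under all 3 treatments (1.92 ± 0.29, 1.69 ± 0.29 and 1.44 ± 0.30). In H1975 CCL22 was not called, at -0.54 ± 0.34, -0.53 ± 0.34 and -0.67 ± 0.35 under the same treatments.

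Of 10 other interferons and colony stimulating factors, 4 could be tested in PC9, and all 4 rose with the combination, where 50.7% of all genes were called. IFNB1, a type I interferon, stood at 1.83, 2.28 and 2.24 CPM with almonertinib, 2.46, 3.37 and 2.17 CPM with paclitaxel, 10.2, 7.55 and 9.31 CPM with the combination, and 2.87, 6.11 and 6.40 CPM in controls. The combination libraries lay above all controls and the almonertinib libraries below them. IFNB1 fell with almonertinib (-1.25 ± 0.27) and paclitaxel (-0.91 ± 0.26) and rose with the combination (0.83 ± 0.24), with an interaction of 3.0 ± 0.37. IFNL3, the near copy of IFNL2, changed by -1.27 ± 0.22, -0.73 ± 0.21 and 1.22 ± 0.20, with an interaction of 3.22 ± 0.30, and IFNL4 rose with the combination by 2.84 ± 0.35. CSF1, the macrophage growth factor, did not follow CSF2: it rose by 1.08 ± 0.08, 0.27 ± 0.08 and 0.94 ± 0.08 in PC9, and by 0.65 ± 0.14 with the combination in H1975. Of 11 inducing cytokines and their receptors 10 could be tested in PC9, and 2 rose and 3 fell with almonertinib, 3 rose and 3 fell with paclitaxel, and 2 rose and 2 fell with the combination. These counts are near the shares of all genes called either way, 56.7%, 55.0% and 50.7%. IL1R1, the receptor of interleukin-1, rose by 1.5 ± 0.22, 0.79 ± 0.22 and 1.55 ± 0.22 under almonertinib, paclitaxel and the combination, while IL1B, which encodes a form of it, was not called with almonertinib (0.13 ± 0.27) and rose with paclitaxel (1.37 ± 0.25) and the combination (0.82 ± 0.26). IL17RA, a receptor subunit for interleukin-17, fell by -0.54 ± 0.10, -0.63 ± 0.10 and -0.45 ± 0.10. IL6, an inflammatory cytokine, fell by -4.82 ± 0.24, -3.28 ± 0.21 and -2.68 ± 0.20 under the same treatments.

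Interferon-stimulated genes rose in number under every treatment. Of the 18 listed, 15 rose with almonertinib in PC9, the group with the lowest IFNL1, 11 rose and 1 fell with paclitaxel and 13 rose with the combination, with median changes of 1.34, 1.05 and 0.81 beside 0.03, -0.01 and 0.00 over all genes, of which 56.7%, 55.0% and 50.7% were called either way. Their interaction was called lower for 13 and higher for 1, where 45.5% of all genes were called either way. In H1975, where IFNL1 had at most 33 counts a group and IFNB1 at most 6, 14 rose with almonertinib, 8 with paclitaxel and 10 with the combination, where 1.95%, 0.640% and 2.46% of all genes were called. Their medians were 1.70, 1.27 and 1.41, beside 0.02, -0.03 and -0.04 over all genes. The H1975 interaction was called lower for 10 of the 18 and higher for 0, where 0.672% of all genes were called. Median interactions of the 18 were -1.55 in PC9 and -1.97 in H1975. OAS1, an antiviral enzyme gene, rose there by 2.14 ± 0.16, 1.81 ± 0.16 and 2.04 ± 0.16. The part of IFNL1 or IFNB1 in the changes of these genes was not tested.

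Several receptors of the 10 factors had few or 0 counts: CCR6 and ACKR1 had 0 counts in all 24 libraries, and CXCR2 had 3 counts with paclitaxel and 1 in controls of PC9 and 0 in H1975. IFNLR1 was present in every group, with 674, 812, 756 and 646 counts over the PC9 almonertinib, paclitaxel, combination and control libraries and 302, 294, 303 and 370 in H1975. In PC9 it fell slightly with almonertinib (-0.32 ± 0.13, adjusted p = 0.047).

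Of 14 transcription factors of chemokine genes, 7 fell and 2 rose with almonertinib in PC9, 11 fell and 3 rose with paclitaxel and 6 fell and 4 rose with the combination. The share of all genes called either way was 56.7%, 55.0% and 50.7%, so the almonertinib count was near it. JUN, an AP-1 subunit, fell by -1.73 ± 0.08, -1.21 ± 0.07 and -1.11 ± 0.07, and FOSL1, another AP-1 subunit and a known target of EGFR signalling, fell by -3.22 ± 0.15 with the combination. IRF7, which drives interferon genes after infection, rose by 2.64 ± 0.14, 1.81 ± 0.14 and 1.58 ± 0.14. In H1975 FOSL1 fell with almonertinib (-1.17 ± 0.22) and the combination (-1.11 ± 0.22), and IRF7 rose under all 3 treatments (1.77 ± 0.17, 1.29 ± 0.17 and 1.25 ± 0.17). Of 8 genes that restrain NF-kB, 4 fell and 1 rose with almonertinib in PC9, 5 fell with paclitaxel and 4 fell and 2 rose with the combination, and the first 2 of these counts are near the same shares of all genes. TNFAIP3, itself an NF-kB target, fell by -2.54 ± 0.12, -1.40 ± 0.11 and -1.48 ± 0.11.

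Over the 12 PC9 libraries, which share their groups and the depth of each library, the pattern of CCL5 was most like KLF2 (Pearson r = 0.990), IFNB1 (0.983) and IFNL3 (0.982) among 12778 genes. Within the set CCL5 went most closely with IFNL2 (0.961), then IFNL1 (0.811) and CXCL10 (0.781), and ran against CXCL1 (-0.939) and CXCL8 (-0.611). The genes most like CXCL8 were ARHGAP19 (0.961), MRPL3 (0.958) and HMGB1 (0.956), and those most like CSF2 were MYO7B (0.965), IGFN1 (0.962) and SESN2 (0.962). In H1975 the closest to CCL5 were HLA-DRA (0.966), PLEKHA4 and NAPSA, to CXCL8 CCNC (0.877), PAQR5 and DTWD1, and to CSF2 TXNL4A (0.932), PDCD2 and CCDC12, so no gene was shared between the lines in these short lists. CXCL10 overlaps ART3 on the opposite strand, with at most 4 counts in a library, and CCL5 overlaps the antisense gene AC015849.1, which is not in the table. The counted strand is not given in the sources used here, so reads of the antisense gene cannot be told from those of CCL5.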

How the data were processed

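Messenger RNA was measured by sequencing in 24 libraries, 3 for each of 8 groups taken from the labels. The values are raw read counts per gene, as the authors deposited them. HISAT2 2.2.1, HTSeq (version not stated) and the build GRCh38 are named in the submitters' processing notes. The annotation and the strand setting of the counting are not given in the sources used here. Depth was 14232299 to 24245314 counts a library.

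Genes passing filterByExpr were tested with edgeR 4.0.16 (R 4.3.3) by its quasi-likelihood test after TMM scaling, with each line fitted on its own 12 libraries and the lines compared in a fit of all 24. P-values were Benjamini-Hochberg adjusted over all genes tested, and calls used a threshold of 0.05. Folds of genes with few counts were computed from summed counts with an exact binomial interval at 95%, and groups at 0 were given 3 counts. The code was checked on simulated data. Same-numbered libraries were counted as paired only where all 3 correlations of their deviations were over 0.1, which held for almonertinib and control in PC9 (0.106, 0.102 and 0.399) and for combination and control in H1975 (0.114, 0.168 and 0.340). The rule for named genes took all 10 genes in both lines, from each list of related genes up to 2 rising and 2 falling with the smallest p, and receptors and interferons whether called or not. For CCL5, CXCL8 and CSF2 it took the 3 genes with the highest Pearson r on log2 CPM, with 0.5 added to each count. The genes and lists were chosen with earlier results of these data known. The alternatives tried were DESeq2 1.42.0, RLE factors, a stricter filter or none, a replicate block, removal of a length and GC trend, other sets of libraries in the fit, and leaving out each replicate. Leaving out the 4 libraries that stood apart on GC was chosen after seeing the data. Promoter sequences came from RefSeq on GRCh38.p14, and gene spans and transcript features from GENCODE v29 on GRCh38.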

Additional observations from a re-analysis of the deposited data

Results flagged for a closer look

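The responses of 4 genes differed between the lines by a test of the difference itself, taken as the PC9 response minus the H1975 response in the fit of all 24 libraries. For almonertinib the differences were -3.01 for CCL5, -2.50 for CCL20, -5.35 for CSF2 and -4.39 for IFNL1 on the log2 scale. For paclitaxel they were -2.27 for CCL5, -1.78 for CSF2 and -3.05 for IFNL1, and for the combination -4.92 for CSF2 and -2.24 for IFNL1. The CCL20 call, and the IFNL1 calls for paclitaxel and the combination, were each lost in fits that left out a single library. CSF2 had 3 counts over the PC9 almonertinib libraries and 4 over the PC9 combination libraries. The single-drug doses differed between the lines, so line and dose cannot be told apart.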

How the results depend on the processing

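Of 3157 values of the 10 genes under alternatives, 3069 stayed on their side of the threshold, 36 became calls and 52 lost the call. In 0 cases did a called value reverse. Of the 1816 values not called in either fit, 100 changed sign, and these are among the 3069.

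With the stricter filter 4 genes of the set were called for the PC9 combination against control and 5 against paclitaxel, since fewer were tested, and 3 of all genes for the H1975 combination against paclitaxel. There RLE factors gave 56 and no filter 54. DESeq2 called 172 genes for H1975 paclitaxel, 708 (2 of the set) for the H1975 combination, 41 for it against almonertinib, 478 against paclitaxel and 249 (1 of the set) for the interaction. With the replicate block 0 of the set were called for H1975 paclitaxel (CCL5, adjusted p = 0.0645), samples that share only a number, and 202 genes for the paired H1975 combination and control. Beside these and the CXCL8 call given with its result, the block changed no call of the 10 genes.

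With the length and GC trend removed the H1975 counts were 1057 for almonertinib, 475 for paclitaxel, 1755 for the combination, 208 for it against paclitaxel and 373 (1 of the set) for the interaction, and the differences between lines 3903, 3496 and 4079 (4 of the set) for almonertinib, paclitaxel and combination. The fit of all 24 libraries gave 918 for the PC9 combination against almonertinib and 3734 against paclitaxel, and in H1975 536, 245, 1258 (2 of the set), 45, 775 and 340 in the order almonertinib, paclitaxel, combination, combination against each, and interaction. Fits of only the groups compared gave 1318 for the PC9 combination against almonertinib, and in H1975 46 (0 of the set) for almonertinib, 1917 (2 of the set) for the combination and 822 for it against paclitaxel.

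Without the 4 libraries that stood apart on GC, chosen after seeing the data, 4184 genes were called for the PC9 combination against almonertinib. In H1975 the counts were 5630 (2 of the set), 1094, 4328 (3 of the set), 4255, 4087 (1 of the set) and 4077 (1 of the set) in that order, and between lines 4031, 4798 and 5187. The cause of these changes was not tested.

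Leaving out each library in turn gave, for the set and for all genes, 5 to 7 and 6420 to 8093 for PC9 almonertinib, 3 to 5 and 5726 to 8068 for paclitaxel, 6 to 8 and 5353 to 7597 for the combination, 6 to 6 and 1274 to 4184 for it against almonertinib, 7 to 8 and 4263 to 7110 against paclitaxel, and 6 to 7 and 4910 to 7474 for the interaction. In H1975 the ranges, in the same order of comparisons, were 1 to 1 and 99 to 906, 0 to 1 and 33 to 237, 0 to 2 and 64 to 1474, 0 to 0 and 0 to 1101, 0 to 0 and 0 to 600, and 0 to 1 and 29 to 596. Between lines they were 3 to 4 and 1594 to 2878 for almonertinib, 2 to 3 and 1113 to 3892 for paclitaxel, 1 to 3 and 1602 to 3744 for the combination, and 8 to 8 and 8552 to 9855 for controls.

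Depth limited CCL20 and CSF2 in treated PC9 libraries and CXCL10, IFNL1 and IFNL2 in H1975, where groups held few or 0 counts and smaller differences were not detectable.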
